A study of Homo sapiens with 6 samples.

Results

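The 6 libraries of this series are split here in a way their labels do not give. Side A holds ERG replicates 1 and 2 and vector replicate 1, and side B holds ERG replicate 3 and vector replicates 2 and 3, so 3 of 6 libraries stand on each side and each side holds both labels. The sides were picked from the correlations between these libraries, that is, from the same values described below. Every side difference is therefore a description with no test, and it says how the libraries differ and not that a group of cells differs from another. The genes described are those with at least 1 CPM (counts scaled to a common library total) in at least 3 libraries, 14203 of the 14821 in the table.

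The libraries came from F36P, an established human erythroleukaemia line known to need GM-CSF or interleukin-3 for growth. The cells carried either the empty retrovirus MSCV-PIG (vector, 3 libraries) or MSCV-PIG-AM-ERG, which drives overexpression of the ETS transcription factor ERG (ERG, 3 libraries), and all 6 were taken after 4 days of selection with 1 µg/ml puromycin. The study asked how ERG holds back red cell maturation. The labels call the replicates biological but do not say whether they were separate transductions or cultures, so p-values measure only the spread between these libraries. The control columns of the table use another word than the sample titles and were read as vector because it is the only other group. Nothing in the labels gives a culture day, passage, density or medium by library, and whether the sides follow any of these was not tested.

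Total counts ranged from 10257141 to 14803031 per library, and neither side was the deeper throughout. The table holds 0 rows named as mitochondrially encoded genes. The 81 ribosomal protein genes took 3.43% to 3.81% of the counts in 5 libraries and 5.14% in vector replicate 1. ERG itself, the overexpressed gene, stood at 97.4, 103 and 28.1 CPM on side A and 104, 14.6 and 22.4 CPM on side B, so all 3 libraries labelled ERG were above all 3 labelled vector on both sides. The erythroid markers EPOR, GATA1, KLF1, HBG1, HBG2, ALAS2, TFRC and KIT all passed the filter; KIT, the stem cell factor receptor, was at 1.37 to 20.2 CPM. Here and below, values are in the order ERG 1, ERG 2, vector 1 for side A and ERG 3, vector 2, vector 3 for side B, normalised by TMM.

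ERG replicates 1 and 2 were nearly the same library. A chi-square comparison of their counts over genes gave 2.20 per degree of freedom, where sampling noise alone gives about 1 and the other 14 pairs gave 21.6 to 86.9. Their difference was thus above sampling noise and far below that of any other pair, and they were kept as 2 libraries, with results that rest on them also given with both summed. Within the ERG label the comparison is in effect 1 library against 1, and within vector it is 1 against 2. Pearson's r of log2 CPM across genes was 0.967 and 0.966 for ERG replicates 1 and 2 with vector replicate 1 on the same side, 0.974 and 0.965 for ERG replicate 3 with vector replicates 3 and 2, and 0.962 for ERG replicates 1 and 2 with ERG replicate 3 of the same label. Vector replicate 1 correlated at 0.957 and 0.954 with the other vector libraries.

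Several well-known programs are followed below. In the integrated stress response, kinases that sense missing amino acids, haem shortage, double-stranded RNA or unfolded proteins phosphorylate the translation factor eIF2, general protein synthesis slows, and the transcription factor ATF4 is made and switches on genes for amino acid uptake, serine synthesis and tRNA charging. SREBP2 switches on cholesterol synthesis when membranes hold little sterol, and HSF1 switches on chaperones when proteins misfold in the cytosol. Red cell precursors are known to depend on the haem-sensing kinase of the first pathway, on cholesterol supply and on the chaperone HSP70.

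Short DNA elements are shown for some of the genes furthest apart in these programs, to show what stands before their starts: composite and heat shock elements for ATF4 and HSF1 targets, and for cholesterol genes the CCAAT box of NF-Y, a factor known to work beside SREBP2. They are 30-base windows on the strand of the gene, from RefSeq on GRCh38.p14. The windows came from a search of the 250 bases before each RefSeq gene start, on both strands, for TGATGNAA (the composite element of ATF4 and C/EBP), a heat shock element (GAA, TTC and GAA, each 2 bases from the next, whose matches may overlap one another), CACCCCAC (a sterol element) and CCAAT, and capitals mark the match. No window with CACCCCAC is shown.
ASNS: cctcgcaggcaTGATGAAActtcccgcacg
CHAC1: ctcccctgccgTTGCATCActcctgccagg
ATF3: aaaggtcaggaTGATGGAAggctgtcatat
HSPA8 (230 bases before the start): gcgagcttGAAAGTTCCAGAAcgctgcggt
HSPA8 (55 bases before the start): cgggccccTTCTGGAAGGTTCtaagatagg
CHORDC1: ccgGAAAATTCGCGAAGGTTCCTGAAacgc
HMGCS1 (155 bases before the start): agtttccttttgATTGGtagaagccggact
HMGCS1 (100 bases before the start): ctaccggccgcgATTGGctgtgggagccac
DHCR7 (94 bases before the start): caggctcctcgaCCAATcacggggcgcgga
DHCR7 (48 bases before the start): ggtccgcctccgATTGGcaggcaatcgctg
The windows lie, in the order printed, at chr7:97872458-97872487, chr15:40953251-40953280, chr1:212565205-212565234, chr11:123062345-123062374, chr11:123062170-123062199, chr11:90223083-90223112, chr5:43313550-43313579, chr5:43313495-43313524, chr11:71448470-71448499 and chr11:71448424-71448453. In GENCODE 29 the ATF3 window and the HMGCS1 window 155 bases before the start lie outside any gene. The CHAC1, HSPA8 and CHORDC1 windows fall in exons of longer transcripts of those genes that start upstream. The DHCR7 window 94 bases before the start falls in an intron of such a transcript, and the remaining DHCR7 and HMGCS1 windows fall partly in an exon. The ASNS window falls in an exon within both ASNS and another annotated gene, AC079781.5, and which of them holds the exon was not determined.

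Matches were counted as letters only. TGATGNAA was in 3.19% of all 27305 promoters of that length, in 1.54% of the 10168 tested genes with a promoter in the table, in 23 of 344 genes (6.69%) at least 2-fold higher on side A in both labels, and in 2 of 117 (1.71%) higher on side B. Among integrated stress response genes it was in 3 of 26, namely ASNS, ATF3 and CHAC1, and among serine and one-carbon genes in 2 of 11, namely GOT1 and MTHFD1L. The heat shock element was in 0.439% of all promoters, 0.285% of tested genes, 1 of 344 genes (0.291%) higher on side A, 4 of 117 (3.42%) higher on side B, and 2 of 15 heat shock genes, HSPA8 and CHORDC1. The CHORDC1 window holds 3 overlapping matches. CCAAT was in 33% of all promoters and 35.5% of tested genes, in 33.1% and 35.9% of the genes higher on side A and side B, and in 15 of 19 cholesterol genes (78.9%). It was not particular to cholesterol genes. Serine and one-carbon genes had it in 8 of 11 (72.7%), integrated stress response genes in 13 of 26 (50%) and heat shock genes in 5 of 15 (33.3%). CACCCCAC was in 2.37% of all promoters, 2.24% of tested genes, 3.2% and 5.13% of genes higher on side A and side B, and 1 of 19 cholesterol genes, SREBF2. The side of a gene was itself chosen from these libraries, so these shares describe the lists and carry no test.

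A gene is called 2-fold higher on a side when the difference in mean log2 CPM was at least 1 in that direction both within vector and within ERG. By this count 542 genes (3.82% of those tested) were higher on side A and 199 (1.40%) on side B. All 3 side A libraries were above all 3 side B libraries for 2900 genes (20.4%), and all 3 side B libraries above for 3212 (22.6%). The difference within vector and that within ERG had opposite signs for 3419 genes, and for 10 of these, FOS and FOSB among them, both differences were at least 2-fold. Across the 14203 genes the 2 differences correlated with Pearson's r of 0.719 and Spearman's rho of 0.695. These are points that share a library set, genes are not independent replicates, and the sides were picked so that such a relation exists. The median difference over all tested genes was 0.02 within vector and 0.00 within ERG on the log2 scale.

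**Figure D1:**
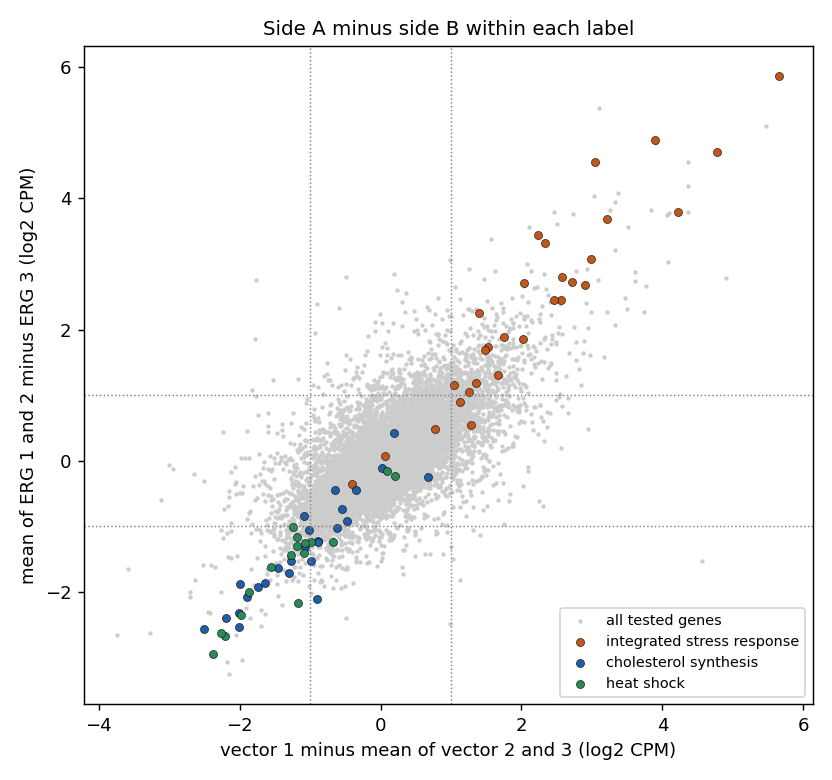
Each point is a gene, with vector replicate 1 minus the mean of vector replicates 2 and 3 on the x axis and the mean of ERG replicates 1 and 2 minus ERG replicate 3 on the y axis, both in log2 CPM, and dotted lines at a 2-fold difference. Integrated stress response genes lie to the upper right (median 2.04 within vector and 2.45 within ERG), and heat shock and cholesterol genes to the lower left (medians -1.19 and -1.40, and -1.04 and -1.42).

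The integrated stress response was the list that stood highest on side A among the 34 lists with tested members. Of its 29 tested genes, out of 31 on the list, 24 were at least 2-fold higher on side A in both labels (3.82% over all tested genes) and 0 on side B. All side A libraries were above all side B libraries for 27 of them (20.4% over all tested genes). The median difference was 2.04 within vector and 2.45 within ERG, against 0.02 and 0.00 over all genes.

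ASNS, asparagine synthetase and a standard target of ATF4, was at 15.01, 16.04 and 18.3 CPM on side A and 2.72, 3.35 and 3.03 CPM on side B. DDIT3, which encodes the transcription factor CHOP, was at 46.9, 47.9 and 59.9 CPM on side A and 7.06, 12.4 and 6.46 CPM on side B. TRIB3, a pseudokinase induced downstream of ATF4, was at 329, 315 and 369 CPM on side A and 24.9, 39.1 and 39.8 CPM on side B. In each of the 3 genes every side A library was several-fold above every side B library, whichever retrovirus the cells carried. The side difference of ASNS was 2.46 within vector and 2.45 within ERG on the log2 scale, that of DDIT3 2.72 within vector and 2.72 within ERG, and that of TRIB3 3.22 within vector and 3.68 within ERG. On hg38 the 3 genes lie at chr7:97852118-97872542, chr12:57516588-57521737 and chr20:362835-397559 in GENCODE 29.

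CHAC1, which breaks down glutathione and whose window with TGATGNAA on the other strand is printed above, was at 67.8, 69.9 and 65.8 CPM on side A and 2.17, 5.18 and 3.52 CPM on side B, a difference of 3.90 within vector and 4.89 within ERG. ATF3, a stress-induced repressor of the ATF family, was at 18.1, 18.2 and 14.1 CPM on side A and 0.543, 0.914 and 0.0978 CPM on side B, a difference of 4.77 within vector and 4.71 within ERG. For both genes all side A libraries were high and the lowest was many times the highest on side B. NUPR1, a small stress-induced chromatin protein, was at 14.8, 19.3 and 71.8 CPM on side A and 0.136, 0.685 and 2.25 CPM on side B, and here vector replicate 1 stood well above the other side A libraries. In ERG replicate 3 only 2 reads of NUPR1 were counted against 470 in ERG replicates 1 and 2, a ratio of 126 with a 95% counting interval of 34.8 to 1047, and the interval covers counting error only.

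The secreted factors of the response stood on the same side. GDF15, a stress cytokine, was at 11.5, 9.46 and 21.4 CPM on side A and 0.611, 0.838 and 1.17 CPM on side B. ADM2, a hormone of the adrenomedullin family, was at 20.6, 18.3 and 11.7 CPM on side A and 0.679, 1.83 and 0.881 CPM on side B. STC2, a stanniocalcin, was at 2.502, 3.15 and 4.67 CPM on side A and 0.272, 0.305 and 1.27 CPM on side B. The 3 genes had no overlap between sides, with differences within vector of 4.23, 3.05 and 2.57 and within ERG of 3.79, 4.55 and 2.79. Among brakes on growth signalling, SESN2, an inhibitor of mTORC1, was at 93.4, 100.2 and 88.1 CPM on side A and 8.76, 19.3 and 17.8 CPM on side B. DDIT4, another such inhibitor, was at 480.2, 468 and 715 CPM on side A and 74.1, 115 and 79.7 CPM on side B. VLDLR, a lipoprotein receptor induced by ATF4, differed by 2.57 within vector and 2.45 within ERG.

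ATF4 itself and its partners lay below the median difference of the list. ATF4 mRNA was at 770.0, 743 and 859.8 CPM on side A and 406, 396 and 394 CPM on side B, a difference of 1.12 within vector and 0.90 within ERG, which misses the 2-fold count within ERG, and ATF4 is known to be set mainly at translation, which these data do not measure. CEBPB and CEBPG, partners of ATF4 on composite elements, differed by 2.02 within vector and 1.85 within ERG and by 1.76 within vector and 1.88 within ERG. PPP1R15A, which brings the phosphatase back to eIF2, was at 327, 314 and 297 CPM on side A and 144, 158 and 132 CPM on side B. Of the kinases on the list, EIF2AK3 (PERK) overlapped between the sides with 0.07 within vector and 0.08 within ERG, while EIF2AK4 (GCN2) was the list's sole gene with all side B libraries above, at 79.7, 79.8 and 78.96 CPM on side A and 102, 111 and 99.1 CPM on side B. ATF5 and ATF6B were above on side A in every library without reaching 2-fold in both labels.

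**Figure D2:**
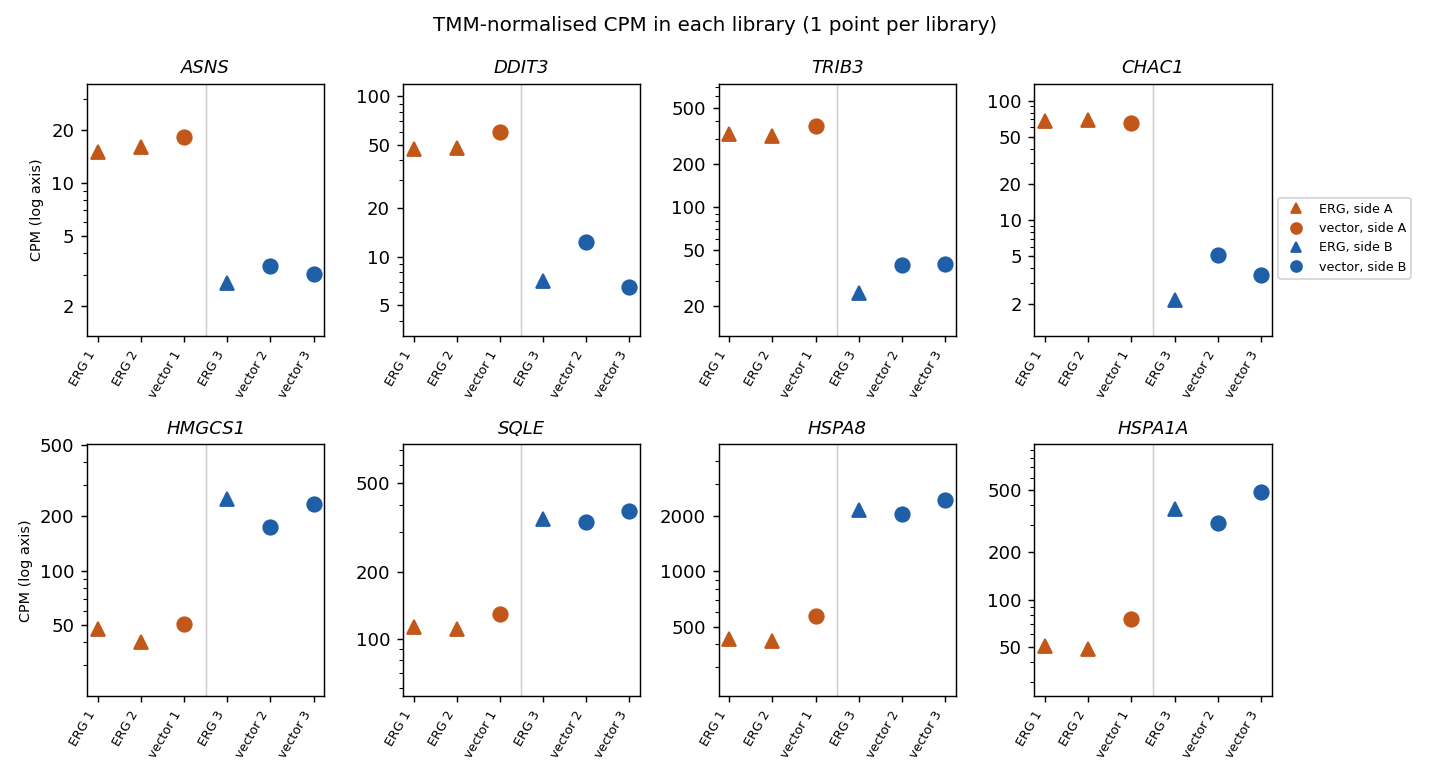
CPM on a log axis in each of the 6 libraries for 8 genes, with triangles for ERG, circles for vector, orange for side A and blue for side B. ASNS, DDIT3, TRIB3 and CHAC1 are high in the 3 side A libraries, and HMGCS1, SQLE, HSPA8 and HSPA1A are high in the 3 side B libraries, with no overlap in any of the 8 panels.

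Serine synthesis and mitochondrial one-carbon metabolism, a branch known to answer to ATF4, were higher on side A. Of 17 tested genes 9 were at least 2-fold higher on side A in both labels and 0 on side B (3.82% and 1.40% over all tested genes), with a median of 1.25 within vector and 1.26 within ERG. PHGDH, the first enzyme of serine synthesis, was at 418, 408 and 448 CPM on side A and 29.7, 21.9 and 21.5 CPM on side B. PSAT1, the next enzyme, was at 258, 252 and 236 CPM on side A and 40.7, 48.2 and 53.4 CPM on side B. PSPH was at 49.1, 53.3 and 49.999 CPM on side A and 20.4, 22.8 and 19.1 CPM on side B. All 3 steps of the pathway had every side A library above every side B library, and PHGDH was the furthest apart with 4.36 within vector and 3.79 within ERG.

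Mitochondrial folate enzymes stood with them: SHMT2 was at 644, 653 and 693 CPM on side A and 192, 185 and 168 CPM on side B. MTHFD2 was at 722, 712 and 658 CPM on side A and 299, 266 and 279 CPM on side B. ALDH1L2, the mitochondrial formyltetrahydrofolate dehydrogenase, was at 8.05, 7.88 and 7.83 CPM on side A and 0.339, 0.685 and 0.978 CPM on side B. All 3 were highest in the side A libraries. The cytosolic counterparts did not stand with them: SHMT1 was at 11.96, 14.1 and 17.3 CPM on side A and 20.8, 22.5 and 21.2 CPM on side B. MTHFD1 was at 191, 182 and 190.2 CPM on side A and 268, 271 and 306 CPM on side B. Thus the mitochondrial isozymes were above in all side A libraries and the cytosolic ones above in all side B libraries, with SHMT2 at 1.97 within vector and 1.75 within ERG and SHMT1 at -0.34 within vector and -0.67 within ERG. TYMS, which makes thymidylate, and ALDH18A1, which starts proline synthesis, were also above on side B in every library. PCK2, mitochondrial phosphoenolpyruvate carboxykinase, and GPT2, mitochondrial alanine aminotransferase, were above on side A, by 1.74 within vector and 2.33 within ERG and by 1.68 within vector and 1.85 within ERG.

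Amino acid transporters leaned to side A. Of 13 tested, 4 were at least 2-fold higher on side A in both labels (3.82% over all tested genes) and 9 had no overlap with side A above (20.4%). Another 3 had no overlap with side B above, close to the 22.6% of all tested genes. The list median was 0.75 within vector and 0.84 within ERG. SLC7A11, the cystine importer, was at 188, 193 and 122 CPM on side A and 18.9, 30.7 and 18.8 CPM on side B. SLC3A2, its heavy chain and that of other exchangers, was at 318, 316 and 388 CPM on side A and 139.9, 163 and 141 CPM on side B. SLC38A1, a glutamine transporter, was at 12.2, 15.01 and 8.19 CPM on side A and 1.83, 0.152 and 0.0978 CPM on side B, and with only 3 reads in vector replicates 2 and 3 against 93 in vector replicate 1 its ratio within vector was 63.7 (95% counting interval 21.1 to 315). The leucine exchanger SLC7A5 and the glutamine carrier SLC1A5 were also above in all side A libraries, by 0.98 within vector and 1.31 within ERG and by 0.75 within vector and 0.77 within ERG. SLC7A6, SLC36A1 and SLC36A4 stood above on side B.

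Cytosolic tRNA synthetases, which load amino acids on tRNAs, also leaned to side A. Of 20 tested, 12 had all side A libraries above (20.4% over all tested genes) and 6 all side B libraries above, not far from the 22.6% of all tested genes. In both labels 4 were at least 2-fold higher on side A (3.82%): WARS1, CARS1, AARS1 and GARS1. WARS1, the tryptophan enzyme, was at 1167, 1139 and 1316 CPM on side A and 249, 335 and 358 CPM on side B. The 6 above on side B were KARS1, FARSA, FARSB, VARS1, HARS1 and RARS1, with RARS1 at 48.2, 44.97 and 50.2 CPM on side A and 74.9, 59.4 and 83.9 CPM on side B. QARS1 overlapped.

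Endoplasmic reticulum chaperones did not stand with the stress response. Of 24 tested, 2 (HERPUD1 and ERN1) were at least 2-fold higher on side A in both labels and 0 on side B (3.82% and 1.40% over all tested genes), and the median was 0.12 within vector and -0.14 within ERG. HSPA5 (BiP), the main chaperone of that compartment and a target of ATF6, was at 359, 357 and 523 CPM on side A and 743, 697 and 739.6 CPM on side B. SDF2L1, a partner of BiP, was at 11.3, 12.1 and 20.2 CPM on side A and 42.2, 36.7 and 36.6 CPM on side B. Both were below on side A in every library, as were CALR and PDIA4, while ERN1, the sensor IRE1, was at 64.2, 66.2 and 45.7 CPM on side A and 25.4, 26.3 and 18.1 CPM on side B. HERPUD1, of the degradation machinery, was at 76.3, 70.5 and 83.1 CPM on side A and 30.6, 23.7 and 28.96 CPM on side B. XBP1 and ATF6, the other transcription factors of the unfolded protein response, were above on side A by 0.98 within vector and 0.69 within ERG and by 0.86 within vector and 0.86 within ERG. Total XBP1 mRNA does not separate its spliced form.

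p53 targets showed no common side. Of 21 tested, 3 were at least 2-fold higher on side A in both labels and 1 on side B (3.82% and 1.40% over all tested genes). All side A libraries were above for 8 and all side B libraries for 5 (20.4% and 22.6%), with a median of 0.29 within vector and 0.33 within ERG. SESN2 and BBC3, which encodes the cell death protein PUMA and also answers to CHOP, led on side A, BBC3 at 96.9, 99.4 and 102 CPM on side A and 21.3, 25.97 and 22.4 CPM on side B. The other 6 with all side A libraries above were GADD45A, TNFRSF10B, CCNG1, FDXR, XPC and RRM2B, each under 2-fold in at least 1 label. The 5 with all side B libraries above were MDM2, BAX, AEN, TRIAP1 and SESN1, with MDM2, which degrades p53, at 67.8, 65.3 and 59.5 CPM on side A and 91.6, 98.8 and 82.2 CPM on side B. CDKN1A (p21), an inhibitor of cyclin-dependent kinases, was low and overlapped, at 0.626, 0.823 and 2.20 CPM on side A and 1.22, 0.762 and 3.52 CPM on side B.

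The oxidative stress list was likewise mixed, with 1 of 23 genes (SLC7A11) at least 2-fold higher on side A and 1 (PRDX1, a peroxiredoxin) on side B (3.82% and 1.40% over all tested genes). Its median was 0.06 within vector and -0.19 within ERG. HMOX1, haem oxygenase, was at 7.35, 6.92 and 16.5 CPM on side A and 3.94, 3.05 and 4.79 CPM on side B. TXNRD1, thioredoxin reductase, was at 154, 154 and 131 CPM on side A and 219.6, 202 and 195 CPM on side B, so these NRF2 targets lay on opposite sides. The metallothionein list, which also holds their regulator MTF1 and the zinc exporter SLC30A1, had 6 tested genes with a median of -0.83 within vector and -0.15 within ERG. MT1X was the sole one past 2-fold in both labels, at 6.57, 4.46 and 2.82 CPM on side A and 11.7, 11.1 and 9.78 CPM on side B. SLC30A1 was at 16.7, 14.9 and 19.3 CPM on side A and 25.8, 29.2 and 35.8 CPM on side B, so in both genes all side B libraries were above, while the other 4 overlapped.

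Cytosolic chaperones were the clearest program on side B. Of 17 tested heat shock genes, 13 were at least 2-fold higher on side B in both labels (1.40% over all tested genes) and 0 on side A. All side B libraries were above for 15 (22.6% over all tested genes). The list median was -1.19 within vector and -1.40 within ERG.

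HSPA1A, the stress-induced HSP70, was at 50.6, 48.3 and 74.9 CPM on side A and 380.3, 310.0 and 489 CPM on side B. HSPA1B, its near-identical neighbour with which it can share reads, was at 44.3, 46.4 and 65.5 CPM on side A and 289.6, 258 and 354 CPM on side B. HSPA8, the constitutive HSP70 whose windows with 2 heat shock elements are printed above, was at 429, 416 and 572 CPM on side A and 2156, 2069 and 2467 CPM on side B. The 3 genes were 4-fold or more apart in both labels except HSPA8 within vector, with -2.38 within vector and -2.94 within ERG for HSPA1A, -2.20 within vector and -2.67 within ERG for HSPA1B and -1.98 within vector and -2.35 within ERG for HSPA8.

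HSPH1, an exchange factor of HSP70, was at 37.9, 42.5 and 47.7 CPM on side A and 247, 221 and 239 CPM on side B. HSP90AA1, the inducible HSP90, was at 758, 738 and 829 CPM on side A and 2996, 2758 and 3305 CPM on side B. CHORDC1, an HSP90 partner with 3 overlapping elements in the printed window, was at 26.6, 27.97 and 28.1 CPM on side A and 83.9, 73.95 and 92.5 CPM on side B. In the mitochondrial pair, HSPD1 (HSP60) differed by -1.08 within vector and -1.40 within ERG and HSPE1 (HSP10) by -1.17 within vector and -2.17 within ERG. DNAJB1, a J-domain partner of HSP70, was at 25.2, 27.3 and 32.8 CPM on side A and 71.1, 72.3 and 87.1 CPM on side B. All of these had no overlap, with every side B library above. HSF1 itself, the regulator, overlapped between sides at 178, 183 and 245 CPM on side A and 202, 225 and 237 CPM on side B, and so did HSPB1 (HSP27), at 26.1, 28.5 and 45.1 CPM on side A and 31.98, 41.9 and 36.6 CPM on side B.

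**Figure D3:**
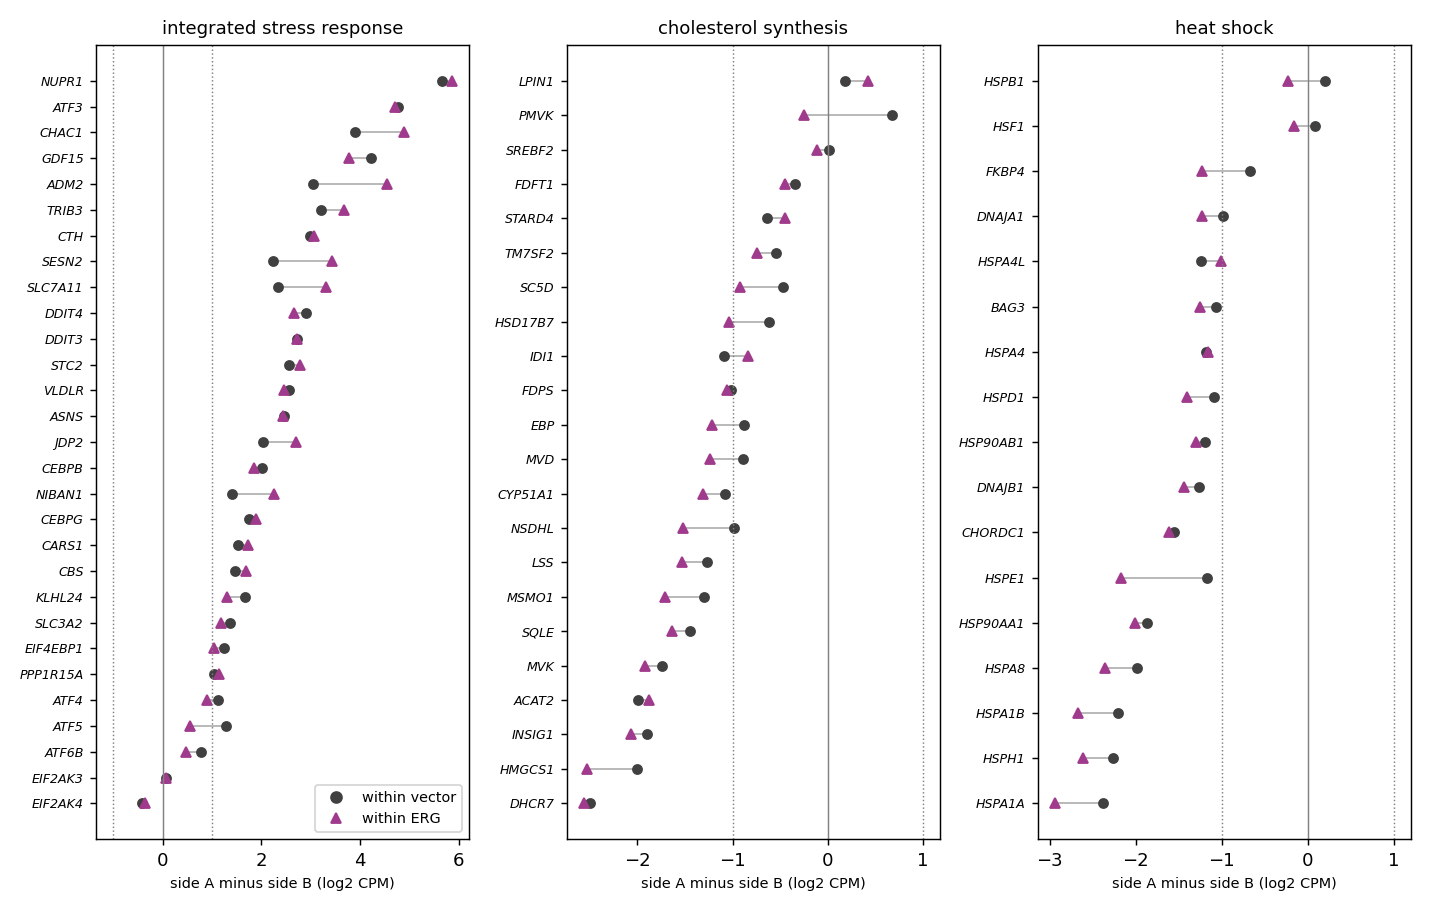
Side A minus side B in log2 CPM for the members shown of 3 lists, with circles for the difference within vector and triangles for the difference within ERG, joined by a line, and dotted lines at a 2-fold difference. Most integrated stress response genes lie right of 1 (24 of 29 with both marks), and 10 of the 22 cholesterol genes shown and 13 of 17 heat shock genes lie left of -1 with both marks.

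Cholesterol synthesis was lower on side A along nearly the whole pathway. Of 26 tested genes, 13 were at least 2-fold higher on side B in both labels (1.40% over all tested genes) and 0 on side A. All side B libraries were above for 22 (22.6%), against 1 (LPIN1) with side A above (20.4%). The list median was -1.04 within vector and -1.42 within ERG.

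HMGCS1, which makes HMG-CoA at the entry to the pathway and lies at chr5:43289395-43313512 on hg38, was at 47.2, 40.04 and 50.6 CPM on side A and 252, 176 and 235 CPM on side B. SQLE, squalene epoxidase, was at 112, 110.2 and 129 CPM on side A and 345, 333 and 372 CPM on side B. MVK, mevalonate kinase, was at 5.94, 6.86 and 7.39 CPM on side A and 24.6, 21.8 and 29.1 CPM on side B. These 3 SREBP2 targets had every side B library above every side A library, with -2.003 within vector and -2.53 within ERG for HMGCS1, -1.45 within vector and -1.63 within ERG for SQLE and -1.75 within vector and -1.92 within ERG for MVK.

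The last step of the pathway was as far apart as the first. DHCR7, the reductase that completes it, was at 23.1, 23.03 and 24.999 CPM on side A and 137, 118 and 171 CPM on side B. LSS, which closes the sterol rings, differed by -1.27 within vector and -1.53 within ERG. ACAT2, at the very entry, was at 26.5, 28.5 and 27.6 CPM on side A and 101, 97.6 and 126 CPM on side B. SREBF2, which encodes SREBP2, overlapped between sides at 267, 269 and 268 CPM on side A and 291, 245 and 287 CPM on side B, and FDFT1 was the least apart of the synthesis enzymes with no overlap, at -0.35 within vector and -0.45 within ERG.

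Export of cholesterol showed no common side. Of 10 tested efflux genes, 1 was at least 2-fold higher on side A in both labels and 1 on side B (3.82% and 1.40% over all tested genes). All side A libraries were above for 3 and all side B libraries for 2 (20.4% and 22.6%). ABCA1, the exporter induced by LXR, was at 10.9, 9.80 and 6.95 CPM on side A and 4.28, 4.04 and 2.35 CPM on side B, so all side A libraries were above, and SCARB1, the HDL receptor, was at 81.5, 83.8 and 92.8 CPM on side A and 166, 185 and 194 CPM on side B, with all side B libraries above. The other 8 tested genes of the efflux list were under 2-fold in at least 1 label. APOE and APOC1, apolipoproteins encoded side by side, overlapped between sides, and both were lower in ERG than in vector by the test of the labels (log2 fold changes -1.51 and -1.30, edgeR adjusted p 0.025 and 0.012). Those calls are among the ones lost with ERG replicates 1 and 2 summed, described further on.

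Fatty acid synthesis followed cholesterol to a smaller extent. Of 13 tested genes, 9 had all side B libraries above (22.6% over all tested genes). In both labels 1 (FASN) was at least 2-fold higher on side B and 1 (ACSL1) on side A (1.40% and 3.82%), with a median of -0.81 within vector and -0.57 within ERG. FASN, fatty acid synthase, was at 435, 442 and 471 CPM on side A and 1196, 1317 and 1634 CPM on side B. SCD, which makes monounsaturated fatty acids, and ACLY, which supplies cytosolic acetyl-CoA, were above on side B with -1.15 within vector and -0.93 within ERG and with -1.02 within vector and -0.86 within ERG. ACSL1, which activates fatty acids for use, was at 83.8, 77.1 and 95.4 CPM on side A and 37.8, 42.7 and 41.97 CPM on side B.

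Glycolysis was lower on side A by less than 2-fold for most enzymes. Of 21 tested genes 13 had all side B libraries above and 0 all side A libraries above (22.6% and 20.4% over all tested genes), with a median of -0.52 within vector and -0.65 within ERG. LDHA, which turns pyruvate to lactate, was the one of 21 past 2-fold in both labels (1.40% over all tested genes), at 163, 164 and 167 CPM on side A and 575, 489 and 505 CPM on side B. ENO1 was at 973, 962 and 836 CPM on side A and 1786, 1475 and 1388 CPM on side B. PKM was at 708, 709 and 553 CPM on side A and 1326, 928 and 1086 CPM on side B, both with no overlap. The glucose transporter SLC2A3 and the enolase ENO2 overlapped.

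TXNIP and ARRDC4, arrestins that limit glucose uptake and are set by sugar phosphates through MondoA, stood on the other side. TXNIP was at 465, 475 and 461 CPM on side A and 160.4, 140.0 and 138 CPM on side B. ARRDC4 was at 50.2, 49.1 and 54.9 CPM on side A and 21.4, 20.8 and 28.4 CPM on side B, so both were above in every side A library. VEGFA, the vessel growth factor and a target of both HIF and ATF4, was at 254, 251 and 239 CPM on side A and 103, 36.02 and 40.9 CPM on side B. These 3 were the ones past 2-fold in the 15 tested genes of the hypoxia list (3.82% over all tested genes). All side A libraries were above for 4 of the 15 and all side B libraries for 3, near the 20.4% and 22.6% of all tested genes. The 3 on side B were BNIP3, EGLN1 and ERO1A. BNIP3 was at 5.32, 5.55 and 4.67 CPM on side A and 14.6, 7.997 and 7.53 CPM on side B.

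By list medians respiration was lower on side A by small amounts, less within vector than within ERG. Of 30 nuclear genes of the respiratory chain 0 passed 2-fold on either side, 13 had all side B libraries above (22.6% over all tested genes), and the median was -0.07 within vector and -0.33 within ERG. In the tricarboxylic acid cycle 13 of 20 genes had all side B libraries above, with a median of -0.22 within vector and -0.34 within ERG. IDH1, the cytosolic NADP-dependent isocitrate dehydrogenase, was the exception at 269, 273 and 350.3 CPM on side A and 119.9, 117 and 109 CPM on side B, above 2-fold on side A in both labels. DLAT, of the pyruvate dehydrogenase complex, stood at 41.4, 47.7 and 40.3 CPM on side A and 79.03, 100.5 and 102 CPM on side B. Lysosome and autophagy genes had 10 of 20 with all side A libraries above and 0 with side B above (20.4% and 22.6% over all tested genes), none past 2-fold in both labels (0 of 20), with a median of 0.42 within vector and 0.27 within ERG.

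Ribosome biogenesis and the cell cycle were lower on side A. Of 20 ribosome biogenesis genes 19 had all side B libraries above (22.6% over all tested genes) and 2 (UTP20 and NOLC1) were at least 2-fold higher there in both labels (1.40%), with a median of -0.75 within vector and -0.86 within ERG. NCL, nucleolin, was at 1252, 1255 and 1133 CPM on side A and 2249, 2313 and 2213 CPM on side B. NOLC1, a nucleolar scaffold, was at 202, 191 and 215 CPM on side A and 451, 485 and 533 CPM on side B. Of 29 replication and mitosis genes 20 had all side B libraries above and 1 (CCND3) all side A libraries above (22.6% and 20.4%). Past 2-fold on side B in both labels was 1 (MCM4, 1.40% over all tested genes), and the list median was -0.59 within vector and -0.40 within ERG. MKI67, the proliferation marker, was at 111, 120.3 and 73.5 CPM on side A and 144, 141 and 139 CPM on side B. MCM3, of the replicative helicase, was at 229, 238 and 199 CPM on side A and 359, 285 and 330.0 CPM on side B. Mitotic genes AURKA, AURKB and PLK1 overlapped.

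Ribosomal protein genes stood apart in vector replicate 1. Their median difference was 0.52 within vector and -0.03 within ERG, and the list's mean log2 level, centred on each gene's mean, was 0.43 in vector replicate 1 and -0.14 to -0.03 in the other 5 libraries. Of 34 tested, 0 passed 2-fold on either side, and 8 had all side A libraries above (20.4% over all tested genes).

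**Figure D4:**
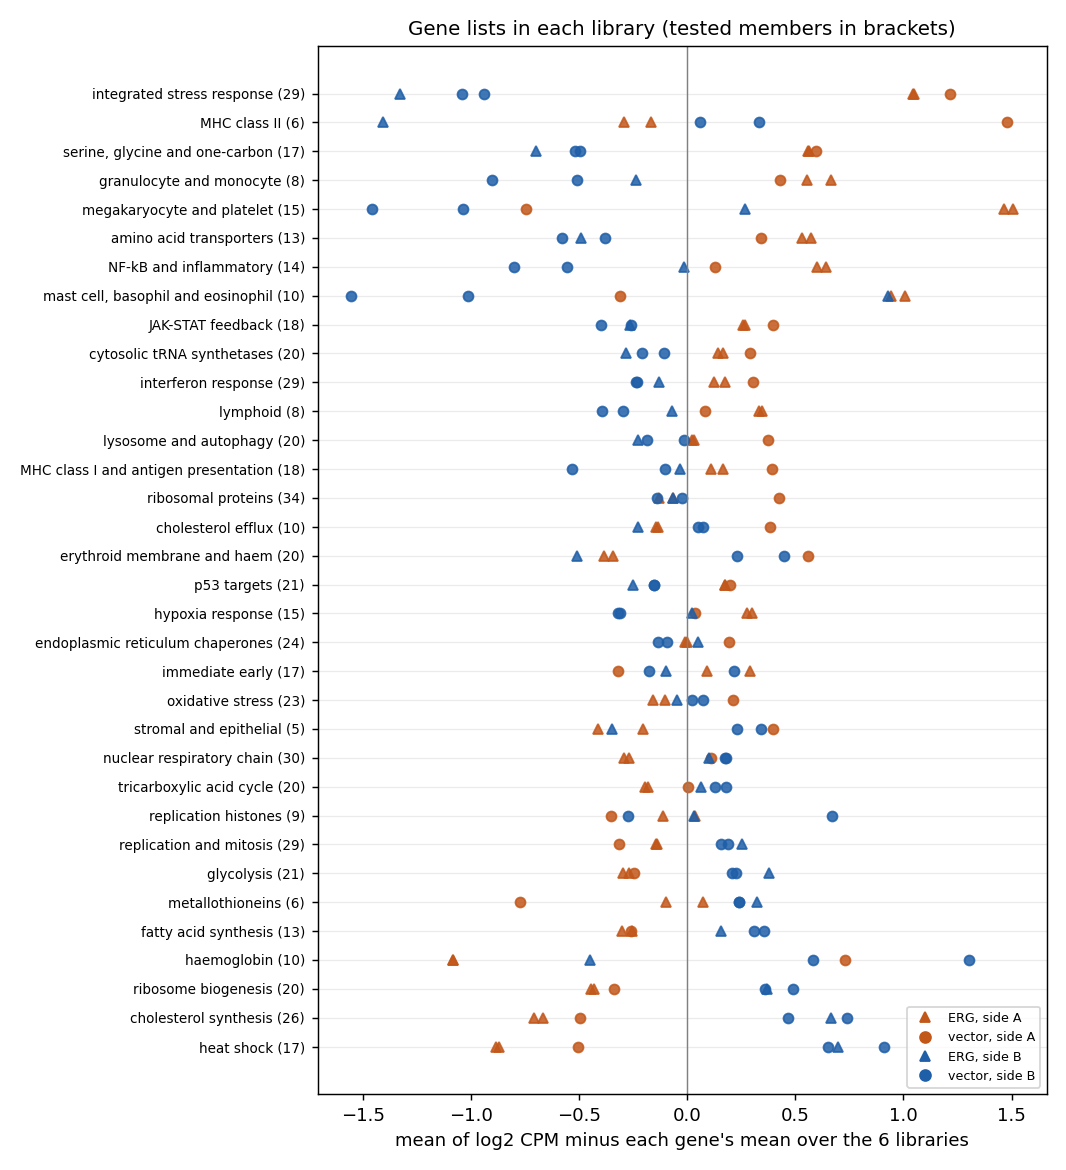
Mean log2 CPM of each gene list in each library, with every gene centred on its mean over the 6 libraries and lists ordered by their side difference, triangles for ERG, circles for vector, orange for side A and blue for side B. The integrated stress response lies at 1.04 to 1.22 on side A and -1.33 to -0.94 on side B, heat shock at -0.88 to -0.50 and 0.65 to 0.91, and cholesterol synthesis at -0.71 to -0.50 and 0.46 to 0.74.

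Immune programs were higher on side A, by less than the stress response and less evenly. Of 29 interferon response genes 13 had all side A libraries above and 0 all side B libraries above (20.4% and 22.6% over all tested genes). Past 2-fold on side A in both labels were 2 (3.82%), and the list median was 0.54 within vector and 0.28 within ERG. Those past 2-fold, RSAD2 (viperin) and ISG20 (an exonuclease), were low in all libraries, RSAD2 at 3.36, 2.81 and 3.52 CPM on side A and 1.02, 2.51 and 0.489 CPM on side B. IFITM1, a membrane protein that blocks virus entry, was at 102, 96.3 and 101 CPM on side A and 61.2, 71.8 and 41.2 CPM on side B. IRF7, the interferon amplifier, was at 24.4, 22.5 and 20.7 CPM on side A and 15.4, 10.7 and 11.6 CPM on side B. Among the most typical interferon targets, IFIT3 was at 6.73, 5.90 and 6.51 CPM on side A and 5.64, 5.79 and 5.77 CPM on side B, IFIT5, OAS1, OAS3 and MX2 overlapped between the sides, and IFIT1, IFIT2, OAS2, OASL and MX1 were not among the tested genes.

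For antigen presentation by MHC class I the within-vector difference was large and the within-ERG difference small. Of 18 tested genes 8 had all side A libraries above and 3 all side B libraries above (20.4% and 22.6% over all tested genes). HLA-E alone was past 2-fold in both labels (3.82%), and the median was 0.71 within vector and 0.08 within ERG. HLA-E, the ligand of NKG2A, was at 238, 227 and 176 CPM on side A and 106, 61.9 and 60.5 CPM on side B. HLA-B was at 101, 107 and 166 CPM on side A and 78.8, 40.7 and 91.7 CPM on side B. HLA-B differed by 1.44 within vector and 0.40 within ERG, and class I chains are alike enough that reads may be shared or lost between them. Without vector replicate 1 the list median, then from ERG alone, was 0.089. B2M, the shared light chain, was at 564, 539.7 and 722 CPM on side A and 507, 451 and 448 CPM on side B.

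MHC class II genes did not follow the sides alone, and libraries of the same side differed by label. The label test in edgeR called 0 of them, with adjusted p 0.27 for HLA-DRA and 0.21 for CIITA. Of 6 tested genes of 11, 3 were past 2-fold on side A in both labels (3.82% over all tested genes), yet 0 had all side A libraries above. HLA-DRA was at 10.5, 10.4 and 37.8 CPM on side A and 2.65, 13.02 and 15.2 CPM on side B, and its master regulator CIITA at 9.31, 10.8 and 30.2 CPM on side A and 4.62, 15.2 and 12.8 CPM on side B. In both, vector replicate 1 was the highest library, ERG replicate 3 the lowest, and ERG replicates 1 and 2 lay at or below vector replicates 2 and 3. HLA-DQB1, the remaining one past 2-fold, rested on 2 reads in ERG replicate 3 against 13 in the other ERG libraries, a ratio of 3.50 with a 95% counting interval of 0.792 to 31.9.

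**Figure D5:**
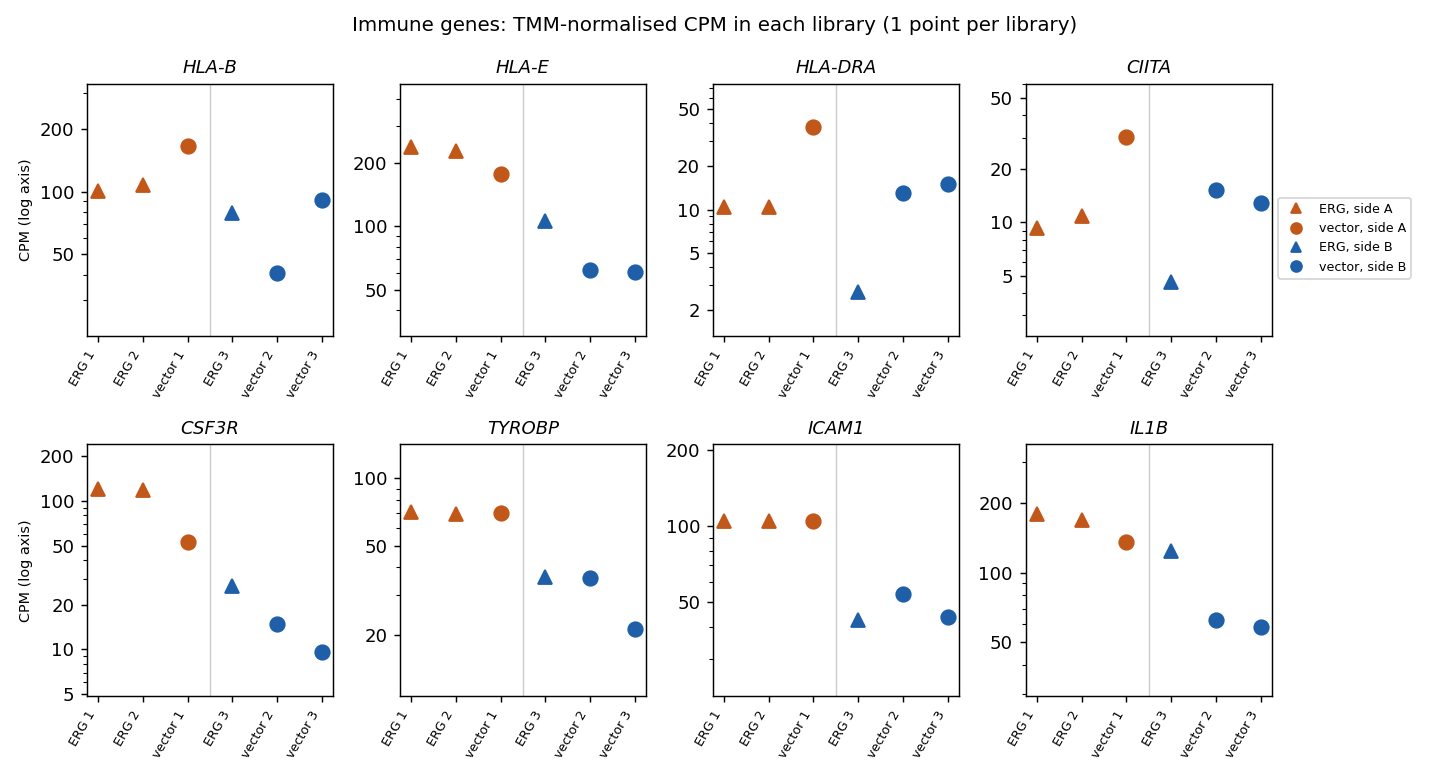
CPM on a log axis in each of the 6 libraries for 8 immune genes, with triangles for ERG, circles for vector, orange for side A and blue for side B. The sides do not overlap for HLA-B, HLA-E, CSF3R, TYROBP, ICAM1 and IL1B, and they overlap for HLA-DRA and CIITA.

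NF-kB targets and inflammatory genes gave 8 of 14 tested with all side A libraries above and 0 with side B above (20.4% and 22.6% over all tested genes). Past 2-fold on side A in both labels were 3 (3.82%), and the list median was 0.77 within vector and 0.55 within ERG. ICAM1, an adhesion molecule, was at 104, 105 and 105 CPM on side A and 42.7, 54.1 and 44.03 CPM on side B. BCL3, a nuclear partner of NF-kB, was at 32.6, 31.9 and 26.1 CPM on side A and 14.9, 8.76 and 6.07 CPM on side B. IL1B, the inflammatory cytokine, was at 179.6, 169 and 136 CPM on side A and 124, 62.3 and 58.5 CPM on side B. The side A libraries were level for ICAM1, while for BCL3 and IL1B ERG replicate 3 was above the other side B libraries. CCL4, the remaining one past 2-fold, rested on 3 reads in ERG replicate 3 against 30, a ratio of 5.38 (95% counting interval 1.67 to 27.6). Of the 26 genes on the list 12 were not tested here.

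Cytokine receptors and their feedback genes were higher on side A. Of 18 tested, 12 had all side A libraries above and 0 all side B libraries above (20.4% and 22.6% over all tested genes). Past 2-fold on side A in both labels were 3 (3.82%), and the list median was 0.62 within vector and 0.44 within ERG. Those 3 were receptor chains, IL2RA (CD25), IL3RA and CSF2RA, which bind interleukin-2, interleukin-3 and GM-CSF. CSF2RA was at 61.5, 58.4 and 70.2 CPM on side A and 25.3, 27.7 and 19.8 CPM on side B. IL3RA was at 19.003, 21.7 and 18.6 CPM on side A and 8.55, 6.32 and 4.40 CPM on side B. The STAT5 feedback genes CISH, SOCS2 and PIM1 were above in all side A libraries by less, with CISH at 104, 105 and 171 CPM on side A and 66.5, 84.4 and 84.5 CPM on side B. EPOR, the erythropoietin receptor, did not follow the sides: it was at 152, 148 and 348 CPM on side A and 139, 388 and 349.7 CPM on side B, and was lower in ERG by the test of the labels (log2 fold change -1.30, edgeR adjusted p 0.01).

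Immediate early genes of growth factor signalling did not move together. EGR1, a zinc-finger factor induced within minutes by ERK, was the gene furthest above on side B of all that met the naming rule, at 3.68, 3.50 and 1.41 CPM on side A and 22.8, 11.2 and 19.96 CPM on side B. FOS was at 6.65, 3.15 and 1.76 CPM on side A and 0.543, 13.5 and 2.94 CPM on side B, with 2-fold differences in opposite directions in the 2 labels (-1.76 within vector and 2.76 within ERG), and ERG replicates 1 and 2, nearly equal elsewhere, differed in it. Of 17 tested, 1 (EGR1) was past 2-fold on side B in both labels and 0 on side A (1.40% and 3.82% over all tested genes). All side B libraries were above for 2 and all side A libraries for 0 (22.6% and 20.4%).

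Markers of other blood cells moved in part with the immune genes. Of the 23 genes on the granulocyte and monocyte list 8 were tested, and MPO, ELANE, PRTN3, AZU1 and CD14 were not among them. The summed level of the 8 was 576 to 697 CPM on side A and 237 to 389 CPM on side B. CSF3R, the G-CSF receptor, was at 119.7, 119 and 53.1 CPM on side A and 26.9, 14.8 and 9.69 CPM on side B. TYROBP, a signalling adaptor of myeloid receptors, was at 71.01, 69.4 and 70.1 CPM on side A and 36.1, 35.8 and 21.2 CPM on side B. Neither gene overlapped between the sides. CD68, a lysosomal macrophage marker, and LST1 were also above on side A in all libraries, LST1 at 46.8, 43.9 and 39.6 CPM on side A and 22.1, 22.8 and 14.1 CPM on side B. Lymphoid markers, 8 of 20 tested and CD3D and MS4A1 not among them, summed to 496 to 565 CPM on side A and 395 to 461 CPM on side B. Stromal and epithelial markers, 5 of 15 tested, among them VIM, which blood cells also express, and KRT8, COL1A2 and DCN not among them, summed to 144 to 171 CPM on side A and 159 to 198 CPM on side B. The part of such cells in the immune differences was not tested, and in bulk RNA fewer cells of a type and less RNA per cell cannot be told apart.

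Lineage lists followed the labels more than the sides. Of 10 haemoglobin genes 0 had non-overlapping sides, although the median was -0.48 within vector and -0.87 within ERG, and HBG2, a fetal globin chain, was at 1423, 1354 and 5814 CPM on side A and 2681, 10377 and 8365 CPM on side B. HBG1 and HBG2, and HBA1 and HBA2, are near-identical pairs whose reads may be shared. Of 20 genes of the red cell membrane and haem, 2 had all side A libraries above and 2 all side B libraries above (20.4% and 22.6% over all tested genes). TFRC, the transferrin receptor that brings iron into red cell precursors, was the only one past 2-fold in both labels (1.40% over all tested genes). It was higher on side B, at 749, 745 and 1175 CPM on side A and 1724, 2701 and 2650.1 CPM on side B. Of 15 megakaryocyte genes 13 were higher on side A in both labels, as were 5517 of the 14203 tested genes. The sides did not overlap for 2 (GP9 and ITGA2B, 20.4% over all tested genes). By the test of the labels 9 rose in ERG (edgeR, 1.47% over all tested genes). ITGB3, an integrin of platelets, was at 570.3, 578 and 43.2 CPM on side A and 211, 21.6 and 28.6 CPM on side B, so side A was higher within each label while ERG replicate 3 stayed above every vector library. Of 10 mast cell genes 0 had non-overlapping sides and 4 rose in ERG (1.47%), with CPA3, a mast cell protease, at 1038, 987 and 220.1 CPM on side A and 772, 105 and 123 CPM on side B. These calls in ERG, as all others of the label test, were lost with ERG replicates 1 and 2 summed and with either of them left out.

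Outside the lists, the genes furthest apart included several that are not part of these programs. On side A they were S100P, OSCAR and CSTA among others. S100P, a calcium-binding protein, was at 27.3, 25.2 and 75.4 CPM on side A and 0.611, 4.34 and 0.489 CPM on side B. OSCAR, a receptor of osteoclasts and myeloid cells, was at 28.9, 23.99 and 58.8 CPM on side A and 1.29, 2.67 and 2.74 CPM on side B. CSTA, a protease inhibitor, was at 15.1, 14.1 and 17.9 CPM on side A and 1.09, 2.51 and 0.783 CPM on side B. S100P and OSCAR were highest in vector replicate 1, and none of the 3 overlapped. ULBP1, a stress ligand of the NKG2D receptor on killer cells and a known ATF4 target, was at 16.3, 13.9 and 8.19 CPM on side A and 0.747, 0.533 and 0.783 CPM on side B. INHBE, an activin subunit, was at 47.2, 50.7 and 54.8 CPM on side A and 1.56, 5.41 and 2.25 CPM on side B. ASS1, which makes argininosuccinate for arginine synthesis, was at 8.21, 8.43 and 8.10 CPM on side A and 0.204, 0.305 and 0.196 CPM on side B. ASS1 had 3 reads in ERG replicate 3 against 228 in the other ERG libraries, a ratio of 40.9 (95% counting interval 13.8 to 200). On side B they were SLCO4A1, CTXN1 and LRP3. SLCO4A1, an organic anion transporter, was at 15.01, 12.1 and 6.51 CPM on side A and 54.04, 43.3 and 43.5 CPM on side B. CTXN1, a small membrane protein, was at 2.58, 3.91 and 4.75 CPM on side A and 16.4, 25.2 and 26.8 CPM on side B. LRP3, a lipoprotein receptor-related protein, was at 3.13, 2.26 and 1.14 CPM on side A and 13.7, 3.50 and 13.6 CPM on side B. The sides overlapped for none of these 9 genes, and came closest for LRP3, whose vector replicate 2 lay just above the highest side A library.

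Side A genes tended to be of low level. Among the 4735 genes of lowest mean CPM, of 3 groups of like size, 7.52% were at least 2-fold higher on side A and 1.92% on side B, and among the 4734 of highest mean CPM 1.37% and 1.33%. By length, the median difference ran from 0.10 in the shortest of 3 groups to -0.07 in the longest within vector, and from -0.08 to 0.04 within ERG, so the 2 labels ran in opposite directions. By GC content, it ran from -0.01 in the lowest of 3 groups to 0.05 in the highest within vector and from 0.03 to -0.05 within ERG.

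The labelled comparison, ERG against vector, was tested without use of the sides (edgeR's quasi-likelihood test, two-sided, Benjamini-Hochberg adjusted p under 0.05). It called 209 genes higher (1.47%) and 104 lower (0.732%) in ERG, 313 in all (2.20%). With ERG replicates 1 and 2 summed as 1 library it called 0, with 1188 genes at an unadjusted p under 0.05. It also called 0 without ERG replicate 1 or without ERG replicate 2, 5 higher and 6 lower without vector replicate 2, and 23 higher and 28 lower without vector replicate 3, and the ERG calls of genes and counts of calls given above carry that limit. Of the 313, 4 were also at least 2-fold higher on side A in both labels (3.82% over all tested genes) and 0 on side B. VSTM1, STAB1 and SELP were among them, named after their values were seen. SELP within vector rested on 4 reads in vector replicate 1 against 1 in vector replicates 2 and 3, a ratio of 8.22 (95% counting interval 0.814 to 405). STAB1, a scavenger receptor, was at 131, 128 and 30.5 CPM on side A and 61.4, 15.8 and 10.6 CPM on side B, higher in every ERG library than in every vector library and higher on side A within each label.

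The label test gave no calls in edgeR among integrated stress response, heat shock and cholesterol synthesis genes. Of the 29 integrated stress response genes 0 passed in edgeR at an adjusted p, 0 at an unadjusted p under 0.05, and 0 in DESeq2. Of 17 heat shock genes 0 passed, 2 (HSPB1 and HSF1) had an unadjusted p under 0.05 and 1 passed in DESeq2, and of 26 cholesterol genes 0 passed, 0 unadjusted and 0 in DESeq2. It called 2 of 23 oxidative stress genes (CAT and SRXN1, named after their values were seen) and 2 of 10 efflux genes (APOE and APOC1) lower in ERG (0.732% over all tested genes). For ASNS the log2 fold change of ERG against vector was 0.45 ± 0.84 (SE), edgeR adjusted p 0.82, for TRIB3 0.58 ± 1.10 with adjusted p 0.82, and for HMGCS1 -0.44 ± 0.79 with adjusted p 0.81. Each label held libraries of both sides, 2 and 1 in ERG and 1 and 2 in vector, and a p that misses the threshold does not show that ERG left these genes alike.

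With the side as a term the spread within a side replaced that between sides. The ERG test then called 1869 genes (13.2%), among them 6 integrated stress response genes, 5 lower and 1 higher in ERG. The 5 were NUPR1 (log2 fold change -2.16, edgeR adjusted p 0.0015), GDF15 (-0.95, 0.029), TRIB3 (-0.40, 0.048), DDIT4 (-0.50, 0.039) and JDP2 (-0.65, 0.033), and the one higher was KLHL24 (0.58, 0.015). Since the side was taken from the same libraries and removes their largest spread, these p-values are too small and are given as a description of the fit. The interaction of side and label in the same fit gave 0 genes at an adjusted p under 0.05 (0%) and 1446 (10.2%) at an unadjusted p under 0.05 in edgeR. It too rests on sides picked from these libraries, with 2 residual degrees of freedom and 1 library in 2 of the 4 cells, so it describes the fit and supports nothing about any gene or list.

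Near the 2-fold limit, ORAI3, a calcium channel, was the gene just inside, with 1.33 within vector and 1.001 within ERG, and ABHD4, a lipase, the gene just outside, with 1.26 within vector and just under 1.00 within ERG. Their libraries were 39.3, 37.2 and 51.9 CPM on side A and 19.01, 28.2 and 15.1 CPM on side B for ORAI3 and 30.03, 29.2 and 16.99 CPM on side A and 14.7, 5.33 and 9.20 CPM on side B for ABHD4, so both had all side A libraries above.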

How the data were processed

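Messenger RNA was enriched by its poly-A tail before fragmentation and random-primed cDNA synthesis, per the labels' protocols. The submitters' processing notes name the build hg38 and the tool edgeR 3.32.1; the aligner, counter, annotation and strand are not given in the sources used here. The deposited table, labelled as CPM, holds the authors' whole-number read counts per gene, and 0 columns of samples were left unused.

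The filter kept genes reaching 1 CPM in 3 or more libraries. Log2 CPM was computed in edgeR 4.0.16 (R 4.3.3) with TMM normalisation and a prior count of 2, and side A minus side B was taken within vector and within ERG. ERG against vector was tested with edgeR's quasi-likelihood test (two-sided, Benjamini-Hochberg over all tested genes, threshold 0.05). The test was also run on simulated data with the same relative spread for every gene and no near-identical libraries. Since these libraries differ in that, the simulated run does not show how far the calls here hold. An SE is the log2 fold change over the square root of its F. Gene positions are from GENCODE 29, which names 12814 of the tested genes. DESeq2 1.42.0, other scalings, prior counts, no filter, a replicate block, and each library left out were alternatives.

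Members, lists and tests were chosen with earlier results of these data known. Named were ASNS, DDIT3, TRIB3 and HMGCS1, the 12 genes furthest apart on each side by the smaller within-label difference (no overlap, mean of at least 5 CPM on the higher side, no unnamed loci, pseudogenes, antisense or readthrough transcripts), and up to 4 members past 2-fold of each list, or the 2 of highest mean CPM where none was. Other genes were named for their role in a program, after their values were seen. Some genes that this rule names are not reported here.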

Additional observations from a re-analysis of the deposited data

How the results depend on the processing

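Numbers of genes and members 2-fold apart between the sides stayed within 1.5 times under every alternative run (72 of 72 values). Without vector replicate 1 or without ERG replicate 3 a label has libraries of a single side, so no such count was obtained. The results ERG against vector, genes called higher (209) and ERG against vector, genes called lower (104) depended on the libraries and the fit. They were 582 and 323 with a replicate block, 1022 and 847 with the side as a term, and 596 and 410 in DESeq2. With ERG replicates 1 and 2 summed they were 0 and 0. The labels do not say whether libraries of the same replicate number were paired. Deviations from the label mean correlated at 0.628, -0.285 and 0.589 for replicate numbers 1, 2 and 3. Leaving out 1 library gave 0 to 319 higher and 0 to 135 lower, with 0 and 0 without ERG replicate 1 or 2 (1195 and 1163 genes at an unadjusted p under 0.05), 5 and 6 without vector replicate 2, and 23 and 28 without vector replicate 3; the cause was not tested.

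The median side difference of all genes (0.02) was 0.043 with total counts only, 0.078 with the upper quartile, and -0.00090 to 0.026 over libraries left out, turning negative without vector replicate 1. Under the upper quartile list medians were 1.33 for serine and one-carbon, 0.55 for tRNA synthetases, -0.67 for fatty acid synthesis, -0.75 for ribosome biogenesis and -0.43 for replication and mitosis. With ERG replicates 1 and 2 summed they were 2.17 for the integrated stress response and 1.11 for serine and one-carbon; with a prior count of 5, 2.25 for the former and 1.17 for MHC class II, which had 1.10 with no filter. Over libraries left out, medians ranged from 2.04 to 2.36 for the integrated stress response, 1.11 to 1.26 for serine and one-carbon, 0.43 to 0.55 for tRNA synthetases, 0.75 to 0.84 for amino acid transporters, -1.39 to -1.18 for heat shock, -1.41 to -1.04 for cholesterol, -0.81 to -0.56 for fatty acids, -0.64 to -0.51 for glycolysis, -0.85 to -0.75 for ribosome biogenesis, -0.58 to -0.39 for replication, 0.28 to 0.54 for interferon, 0.089 to 0.71 for MHC class I, 1.04 to 1.36 for MHC class II, 0.50 to 0.77 for NF-kB, 0.45 to 0.62 for JAK-STAT and 0.80 to 1.20 for granulocytes and monocytes. Without ERG replicate 3 or vector replicate 1 these medians rest on 1 label. Of values of single named genes, 98 moved by more than the spread left between libraries after label and side were fitted, and 1080 did not. By the same measure, medians of the lists and of all genes stayed in 194 values, moved in 43 and reversed in 1. Genes near 1 CPM are limited by depth.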
